A study of Mus musculus with 2 samples.

Results

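The 10 genes described here encode subunits of the Polycomb repressive complexes, and were looked up by symbol among the 24354 genes of the deposited FPKM table. All 10 were found. Ezh1, Ezh2, Suz12 and Eed encode the core of PRC2, Jarid2, Mtf2 and Phf19 encode its accessory subunits, and Ring1, Rnf2 and Bmi1 encode subunits of PRC1. FPKM counts fragments relative to transcript length and library size, so genes of different length can be set side by side within a library.

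PRC2 places methyl groups on lysine 27 of histone H3, and PRC1 attaches ubiquitin to histone H2A. Both marks lie over silent developmental genes, and in ESCs these complexes hold lineage regulators in check until differentiation begins. Several subunits come as paralogs that replace each other in different assemblies, so the balance between paralogs helps to set which complex a cell can build.

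The RNA came from mouse ESCs that had formed EBs and were then kept for 7 days in differentiation medium with BMP4 and 0.5 µM 4-OHTM, the drug that activates CreER. The Diff–CONT library is from Ino80 2f/2f ESCs, which the sample labels call WT, and the Diff–iKO library is from Ino80 2f/2f ESCs with ROSA26-CreER, labelled Ino80 knockout. Both lines were derived from blastocysts, and whether each is 1 clone is not stated. ROSA26 is active in most cell types. Both conditions share the floxed alleles and 4-OHTM, and CreER is present only in the second, so CreER activity, loss of Ino80 and other differences between the separately derived lines cannot be told apart. Xist, the RNA of X inactivation, had an FPKM of 0.0639 in Diff–CONT ESCs against 3.59, and the Y-linked Uty of 4.14 against 0.664, and the part of such a difference between the lines in the values below was not tested. Each condition had 1 library and no replicate, so no test of the conditions is possible and no p-value is given.

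Ino80 itself had an FPKM of 8.90 in Diff–CONT ESCs against 10.3 in the Diff–iKO-labelled library, a log2 ratio of 0.21. The whole-gene value thus goes against the label, and FPKM per gene does not resolve the deleted exons. The study also genotyped its lines by PCR, which was not analysed here. Higher and lower refer here to the library labelled Diff–iKO, with Diff–CONT as the base, and of a pair of FPKM values the first is that of Diff–CONT ESCs. The intervals given with log2 ratios are exact 95% intervals for counting error, from the fragments behind each value. They say nothing of how cultures vary. The members rested on 269 to 4381 fragments in Diff–CONT ESCs and on 366 to 6039 in the Diff–iKO-labelled library.

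The PRC2 scaffold genes and the PRC1 genes differed in direction. Suz12, Eed, Jarid2 and Phf19 were 1.85 to 2.23 times as high in the library labelled Diff–iKO, and Mtf2 was 1.33 times as high. Ezh1, Ezh2, Ring1, Rnf2 and Bmi1 were lower, with log2 ratios from -0.50 to -0.20. The cut-off was a fold of at least 2 with an FPKM of at least 2 in at least 1 library. Only Phf19 was past it, so 1 of 10 members was higher and 0 were lower, where 6.73% of the 12376 genes at or above that FPKM minimum were higher and 8.39% were lower. At a fold of 1.5, 4 members were higher and 0 lower, against 14.9% and 17.6% of genes. The median log2 ratio of the members was 0.10, where that of all genes averaging at least 1 FPKM was -0.0077 (FPKM + 0.1).

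**Figure D1:**
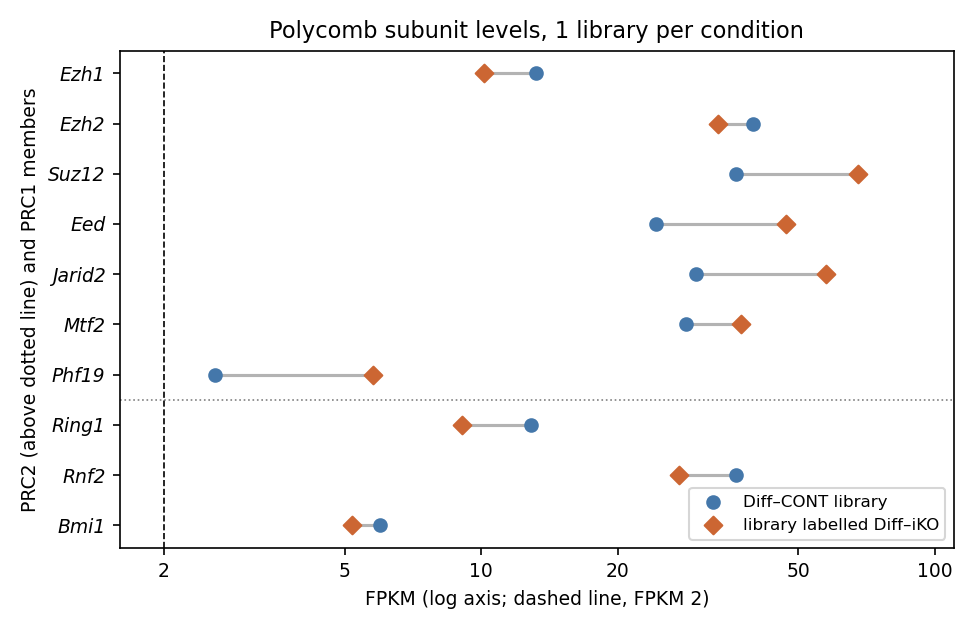
FPKM (log axis) of each of the 10 subunits in the Diff–CONT library (circles) and in the library labelled Diff–iKO (diamonds), with PRC2 genes above and PRC1 genes below the dotted line. Suz12, Eed, Jarid2, Mtf2 and Phf19 lie to the right in the library labelled Diff–iKO, and the other 5 genes lie to the left.

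Among the PRC2 core genes, Suz12 encodes the scaffold on which the complex is built. It lies on chromosome 11 from 79993106 to 80034123 on the plus strand (all positions are of GRCm38, which is mm10). Its FPKM was 36.5 in Diff–CONT ESCs against 67.5 in the Diff–iKO-labelled library. The log2 ratio was 0.89 (interval 0.83 to 0.94), which lies under the cut-off of 1 by more than counting error. Among the 12376 genes, 8.13% had a higher log2 ratio than Suz12.

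Eed encodes the subunit that binds trimethylated lysine 27 and lies on chromosome 7 from 89954654 to 89980983, on the minus strand. Its FPKM was 24.3 in Diff–CONT ESCs against 46.8 in the Diff–iKO-labelled library, a log2 ratio of 0.94. The interval of 0.84 to 1.05 includes the cut-off, so counting error alone does not place Eed on either side of it. The intervals of Suz12 and Eed overlap. The start of Eed is overlapped by E230029C05Rik on the other strand, a transcript with an FPKM of 0.106 and 0.0704.

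Ezh2 encodes the more active of the alternative methyltransferases of PRC2 and lies on chromosome 6 from 47530139 to 47595341. Its FPKM was 39.7 in Diff–CONT ESCs against 33.2 in the Diff–iKO-labelled library (log2 ratio -0.26, interval -0.34 to -0.17). Ezh1, the less active paralog that prevails in many resting cells, lies on chromosome 11 from 101191115 to 101226463. Its FPKM was 13.2 and 10.1 (log2 ratio -0.38, interval -0.50 to -0.26). Both catalytic genes were lower beyond counting error, while both Suz12 and Eed were higher. Ezh2 was 3.01 times as high as Ezh1 in Diff–CONT ESCs against 3.27 times in the Diff–iKO-labelled library. This ratio changed by 0.12 on the log2 scale, with an interval of -0.02 to 0.27 that includes 0.

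The sum of Ezh1 and Ezh2 was therefore lower relative to the scaffold. It was 1.45 times the FPKM of Suz12 in Diff–CONT ESCs against 0.642 times in the Diff–iKO-labelled library. Relative to Eed it was 2.17 and 0.925 times. These sums, and the family shares given further on, were chosen after the values had been seen. They describe RNA and not protein. The histone-binding subunits Rbbp4 (FPKM 73.6 and 57.7) and Rbbp7 (234 and 186), which also serve in other chromatin complexes, were lower like the catalytic genes, with log2 ratios of -0.35 and -0.33. Of the 6 core genes, 2 were higher and 4 lower, and 0 were past the cut-off.

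Jarid2 encodes an accessory subunit with a Jumonji domain that helps to bring PRC2 to its sites. It lies on chromosome 13 from 44729474 to 44921643, on the plus strand. Its FPKM was 29.8 in Diff–CONT ESCs against 57.6 in the Diff–iKO-labelled library, a log2 ratio of 0.95 (interval 0.89 to 1.01, which reaches the cut-off). Aebp2, which joins the same assembly as Jarid2, had an FPKM of 15.1 and 20.4 (log2 ratio 0.43, interval 0.26 to 0.61). The Jarid2 and Aebp2 sum was 1.74 times as high in the library labelled Diff–iKO.

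The Polycomb-like proteins Phf1, Mtf2 and Phf19 define the other main assembly of PRC2 and bind CpG-rich DNA. Phf19, on chromosome 2 from 34893757 to 34914026 on the minus strand, had an FPKM of 2.59 in Diff–CONT ESCs against 5.78 in the Diff–iKO-labelled library. Its log2 ratio of 1.16 (interval 0.94 to 1.38) was past the cut-off, and fell to 0.92, under it, with a pseudocount of 1. Phf19 was the member with the lowest level in the Diff–CONT library, where it rested on 269 fragments. It stayed the smallest part of the Polycomb-like sum, with 5.95% in Diff–CONT ESCs against 9.71% in the Diff–iKO-labelled library.

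Mtf2, the Polycomb-like gene with the highest level in both libraries, lies on chromosome 5 from 108065674 to 108109004. Its FPKM was 28.2 and 37.4 (log2 ratio 0.41, interval 0.34 to 0.48), so it was higher beyond counting error and under the cut-off. The end of Mtf2 overlaps Tmed5 on the other strand, whose FPKM was 13.5 and 27.3. The library kit was a stranded one, but whether fragments were counted by strand is not stated, and the part of Tmed5 in the Mtf2 value was not tested. The FPKM of Phf1 was 12.7 and 16.3 (log2 ratio 0.36). Mtf2 was 10.9 times as high as Phf19 in Diff–CONT ESCs against 6.47 times in the Diff–iKO-labelled library, a change of -0.75 (interval -0.98 to -0.52).

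Of the 10 accessory genes listed, 8 reached the FPKM minimum. Past the cut-off, 2 were higher (6.73% over all genes), namely Phf19 and Epop, and 1 was lower (8.39% over all genes). Epop, an accessory gene with high expression in ESCs, had an FPKM of 14.7 and 33.2 (log2 ratio 1.17, interval 1.05 to 1.29). Skida1, a homolog of Epop, went the other way, with 6.24 in Diff–CONT ESCs against 1.87 (log2 ratio -1.74). The median log2 ratio over the 9 accessory genes that averaged at least 1 FPKM was 0.41, with 7 of them higher.

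Rnf2, which encodes the E3 ligase RING1B and spans 151458004 to 151500955 of chromosome 1, had an FPKM of 36.5 in Diff–CONT ESCs against 27.2 in the Diff–iKO-labelled library (log2 ratio -0.42, interval -0.51 to -0.34). Its end overlaps that of Trmt1l on the other strand, which had an FPKM of 17.3 and 17.1. Ring1, the paralog that encodes RING1A, lies on chromosome 17 from 34020792 to 34024680. Its FPKM was 12.9 and 9.09, a log2 ratio of -0.50 (interval -0.69 to -0.31), the lowest of the 10 members. The ligase genes were lower by a like amount, and Rnf2 was 2.84 times as high as Ring1 in Diff–CONT ESCs. The balance of Rnf2 to Ring1 changed by 0.08 on the log2 scale (interval -0.13 to 0.28). Suz12 was 0.740 times the sum of Ring1 and Rnf2 in Diff–CONT ESCs against 1.86 times in the Diff–iKO-labelled library.

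Bmi1 encodes PCGF4, one of the PCGF subunits that pair with the ligase, and is known for repressing the Cdkn2a locus. It lies on chromosome 2 from 18677018 to 18686629, and Commd3 ends 787 nucleotides before it. Its FPKM was 5.97 and 5.20 (log2 ratio -0.20), and the interval of -0.39 to -0.01 nearly reaches 0. Bmi1 was a small part of the PCGF genes, with 5.40% of their summed FPKM in Diff–CONT ESCs against 5.11% in the Diff–iKO-labelled library. Pcgf2, its closest paralog, was 5.05 and 4.77 times as high as Bmi1. Of the 6 PCGF genes 0 were past the cut-off, and their log2 ratios ran from -0.28 for Pcgf2 to 0.13 for Pcgf3.

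**Figure D2:**
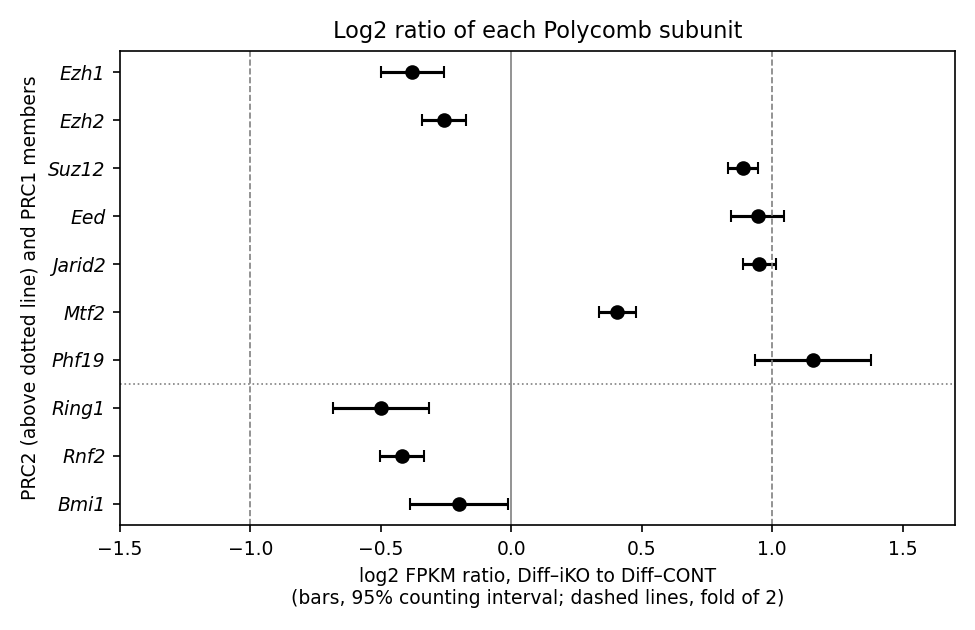
Log2 FPKM ratio (Diff–iKO-labelled over Diff–CONT) for the 10 subunits, with exact 95% counting intervals as bars and dashed lines at a fold of 2. The intervals of Eed, Jarid2 and Phf19 cross the upper dashed line, and all 3 PRC1 genes lie under 0.

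The order of the members also differed between the libraries. In the Diff–CONT library Ezh2 was the highest at 39.7, followed by Suz12 and Rnf2 at 36.5 each, Jarid2, Mtf2, Eed, Ezh1, Ring1, Bmi1 and Phf19. In the library labelled Diff–iKO Suz12 was the highest, followed by Jarid2, Eed, Mtf2, Ezh2, Rnf2, Ezh1, Ring1, Phf19 and Bmi1. Counting intervals of neighbours overlapped for Suz12 and Rnf2, for Jarid2 and Mtf2 and for Ezh1 and Ring1 in the Diff–CONT library. In the library labelled Diff–iKO they overlapped for Ezh1 and Ring1 and for Phf19 and Bmi1. Over genes at or above the FPKM minimum, the median FPKM was 13.3 and 12.9. The values of Ezh1, Ring1, Bmi1 and Phf19 lay under it in both libraries and those of the other 6 members above it. In the Diff–CONT library the counting intervals of Ezh1 (12.5 to 13.9) and Ring1 (11.9 to 13.8) include the median.

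The upstream sequences of the 4 members at a fold of 1.5 or more, and of Ring1 as the member with the lowest log2 ratio, are shown because these genes mark the ends of the range. They are RefSeq sequences of GRCm38.p6 from 250 bases before the listed start, written 5′ to 3′ on the strand of the gene and ended before any annotated UTR. Exons without an annotated UTR were not cut off. Before the cut, all 250 bases of Eed lay in exons of E230029C05Rik or Eed, and 61 of Phf19 in exons of Gm13448 or Phf19. Capitals mark matches to the motifs searched on both strands, which were the GC box GGGCGG, the CCAAT box CCAAT, E2F as TTTNNCGC, ETS as CCGGAAG, NRF1 as GCATGCGC, YY1 as GCCATNTT and the E-box CACGTG. In Phf19, the E2F match nearer to the start overlaps the YY1 match. The stretches lie at chr11:79992856-79993105 for Suz12 (plus strand), chr7:89980984-89981226 for Eed (minus), chr13:44730524-44730773 for Jarid2 (plus, the first of 2 listed starts), chr2:34914018-34914226 for Phf19 (minus) and chr17:34024681-34024930 for Ring1 (minus). That of Jarid2 lies within the GENCODE span of the gene, which begins at 44729474, and in no annotated exon. It is upstream of the listed start only.
Suz12: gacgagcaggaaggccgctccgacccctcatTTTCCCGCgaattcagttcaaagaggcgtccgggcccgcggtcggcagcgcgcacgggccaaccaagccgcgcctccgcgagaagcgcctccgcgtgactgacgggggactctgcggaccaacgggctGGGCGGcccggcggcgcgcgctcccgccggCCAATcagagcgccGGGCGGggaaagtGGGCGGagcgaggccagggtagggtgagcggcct
Eed: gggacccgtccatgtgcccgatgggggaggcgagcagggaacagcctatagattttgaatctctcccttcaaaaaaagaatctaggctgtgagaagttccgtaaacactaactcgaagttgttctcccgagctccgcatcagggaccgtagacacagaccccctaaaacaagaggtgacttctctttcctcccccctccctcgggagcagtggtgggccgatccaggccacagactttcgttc
Jarid2: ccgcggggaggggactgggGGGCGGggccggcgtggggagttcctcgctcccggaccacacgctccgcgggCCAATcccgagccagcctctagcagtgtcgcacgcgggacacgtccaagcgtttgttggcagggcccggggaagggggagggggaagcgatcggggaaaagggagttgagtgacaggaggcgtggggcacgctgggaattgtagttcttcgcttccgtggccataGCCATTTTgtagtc
Phf19: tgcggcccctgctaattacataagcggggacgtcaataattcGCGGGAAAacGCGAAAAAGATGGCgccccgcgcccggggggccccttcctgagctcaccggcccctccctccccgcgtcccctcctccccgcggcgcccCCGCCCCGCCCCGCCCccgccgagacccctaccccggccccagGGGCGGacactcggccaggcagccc
Ring1: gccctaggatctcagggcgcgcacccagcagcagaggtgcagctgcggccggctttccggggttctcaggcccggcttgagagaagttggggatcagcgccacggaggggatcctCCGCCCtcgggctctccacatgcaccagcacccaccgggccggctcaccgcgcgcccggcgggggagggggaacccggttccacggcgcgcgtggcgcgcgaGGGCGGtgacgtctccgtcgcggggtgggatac

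Suz12, Eed, Jarid2 and Phf19 had no motif of this set in common. Over the full 250 bases at the first listed start, Suz12 held 3 GC boxes, 1 CCAAT box and 1 E2F match, Phf19 held 4 GC boxes, 2 E2F matches and 1 YY1 match, Jarid2 held 1 GC box, 1 CCAAT box and 1 YY1 match, and Eed held 0 matches of any kind. Over the 10 members, 7 held a GC box, where 61.7% of 9424 expressed genes with a listed promoter and 32.9% of all 27025 listed genes did. A YY1 match was present in 3 members against 4.54% of expressed genes, and an E2F match in 2 members against 7.32%. The CCAAT box was present in 3 members (36.7% of expressed genes), the E-box in 1 member, Bmi1 (8.56%), ETS in 0 (13.9%) and NRF1 in 0 (4.63%). The median GC content of these stretches was 68.8% over the members, from 54.4% for Eed to 75.2% for Phf19, and 60.4% over expressed genes. A match is a description of the letters and not a binding site. The stretches of Ezh2 and Jarid2 lie within the GENCODE spans of these genes, and 125 of the 250 bases of Ezh2 are in its UTR. The CCAAT boxes of Ezh2 and Jarid2 and the YY1 match of Jarid2 therefore do not lie upstream of the whole gene.

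The canonical PRC1 genes outside the 10 members also came in paralogs of opposite direction. Cbx7, the CBX gene known as the main one of ESCs, had an FPKM of 26.4 in Diff–CONT ESCs against 61.1 in the Diff–iKO-labelled library (log2 ratio 1.21, interval 1.13 to 1.29). Cbx2, which is known to take over as ESCs differentiate, had an FPKM of 16.1 and 5.54 (log2 ratio -1.54, interval -1.70 to -1.39). Both were past the cut-off, in opposite directions. The ratio of Cbx7 to Cbx2 was 1.64 in Diff–CONT ESCs against 11.0 in the Diff–iKO-labelled library.

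Opposite directions were also present among the Polyhomeotic genes, whose proteins link PRC1 complexes to each other. Phc1 had an FPKM of 38.3 and 87.3 (log2 ratio 1.19, interval 1.13 to 1.25) and Phc2 of 56.3 and 40.4 (-0.48, interval -0.56 to -0.40). The share of Phc1 in the summed FPKM of the Phc genes was 37.9% and 65.6%. The sum of the Phc genes was 1.32 times as high. The shares of Ezh1 (24.9% and 23.4% of the EZH sum) and Rnf2 were nearly equal in the libraries.

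**Figure D3:**
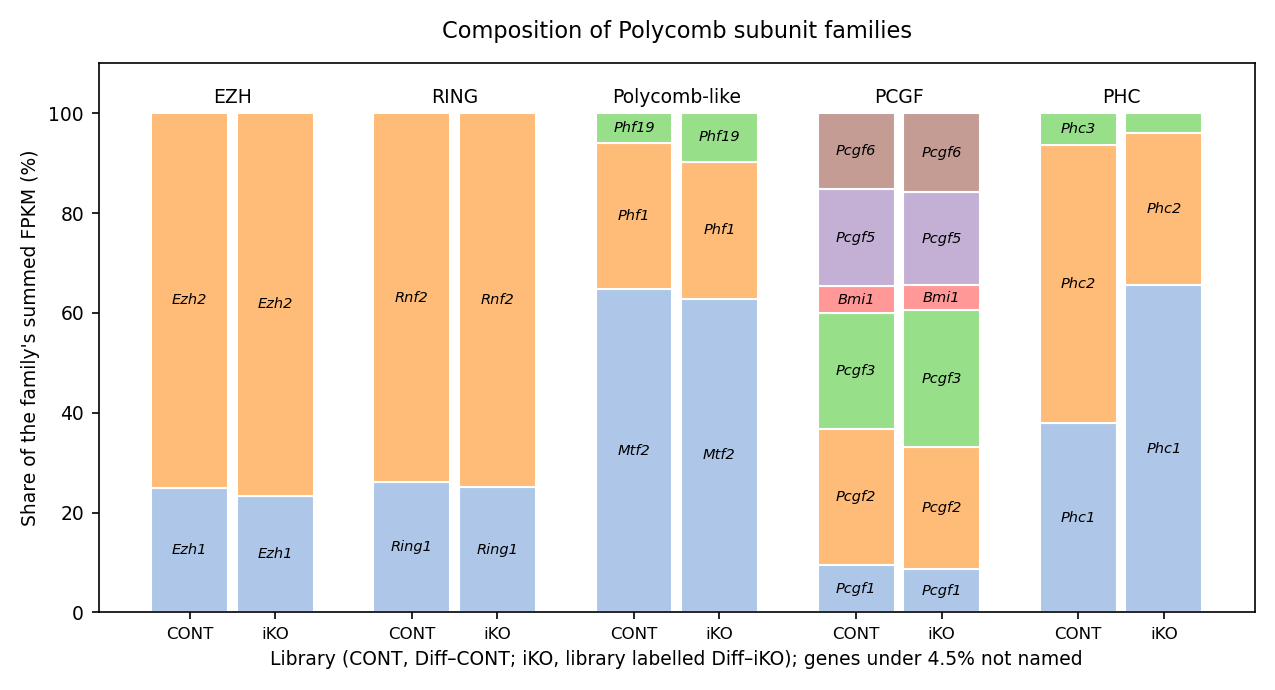
Share of each gene (%) in the summed FPKM of its subunit family, with the Diff–CONT library on the left and the library labelled Diff–iKO on the right of each pair of bars. Phc1 takes up 65.6% of its family in the library labelled Diff–iKO, and the EZH, RING and PCGF bars look alike in both libraries.

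Partners of variant PRC1 and deubiquitinase genes were not past the cut-off. Of the 15 partners of variant PRC1 0 were past the cut-off, and their median log2 ratio was 0.25, with 9 higher and 6 lower. Rybp (FPKM 14.0 and 18.7) and Usp7 (48.8 and 65.7) were among the higher ones. Auts2 (9.25 and 5.55) had the lowest log2 ratio, -0.74. Skp1a, with 150 and 196, also belongs to that list. Of the 9 genes of the deubiquitinase complex PR-DUB and of H2A deubiquitination 8 reached the FPKM minimum and 0 were past the cut-off, with a median of 0.11 and with Bap1, the deubiquitinase itself, at 35.9 and 35.7 and Asxl1 at 27.8 and 31.5. Asxl3, the gene under the minimum, had an FPKM of 1.46 and 0.512 (log2 ratio -1.51, interval -1.80 to -1.23). Over all 59 Polycomb genes of these lists, 54 reached the FPKM minimum, 4 were past the cut-off and higher (Phf19, Epop, Cbx7 and Phc1) and 2 were lower (Skida1 and Cbx2). Over all genes, 6.73% were past it and higher and 8.39% lower, so these counts are close to or under the shares over all genes.

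Enzymes that oppose Polycomb were also compared. Kdm6b, which removes methyl groups from lysine 27, had an FPKM of 32.6 in Diff–CONT ESCs against 18.4 in the Diff–iKO-labelled library (log2 ratio -0.82, interval -0.89 to -0.76), under the cut-off. Kdm6a, the X-linked demethylase gene, was 14.3 and 15.1, and its Y-linked homolog Uty, given above with Xist, was the 1 gene of this list past the cut-off. Of the 5 Trithorax methyltransferase genes 0 were past it, with Kmt2b at 24.98 and 24.2 and Kmt2a at 13.6 and 14.2.

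Genes long known as Polycomb targets in ESCs were mostly lower. Of 33 such genes, 22 reached the FPKM minimum. Past the cut-off, 12 were lower (8.39% over all genes) and 2 were higher (6.73% over all genes), namely Cdkn2b and Hoxb9. The endoderm and mesoderm regulators Gata4 (FPKM 20.1 and 2.56), Gata6 (8.85 and 2.36), Sox17 (5.36 and 0.317), Foxa2 (13.8 and 4.19), T (7.83 and 1.20), Eomes (5.25 and 1.48), Hand1 (70.8 and 31.3) and Isl1 (7.23 and 0.934) were among the lower ones. Cdx2 (4.00 and 0.705), Lhx2 (4.58 and 0.575) and Wnt1 (4.38 and 0.469) were also lower. The cell cycle inhibitor genes of the Cdkn2a locus went the other way. Cdkn2b had an FPKM of 14.4 and 37.0 (log2 ratio 1.36, interval 1.21 to 1.52), and Cdkn2a of 19.4 and 35.7 (0.88, interval 0.69 to 1.07), whose interval includes the cut-off. Hoxb9 was 2.15 and 9.83. Histone marks were not analysed here, so whether these genes carried the Polycomb marks in these cells was not tested.

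Markers of undifferentiated cells were higher in the library labelled Diff–iKO. Of 10 pluripotency genes, 9 were past the cut-off and higher (6.73% over all genes), and none was at 0. Pou5f1 had an FPKM of 60.8 in Diff–CONT ESCs against 247 in the Diff–iKO-labelled library, Nanog 19.5 and 81.2, and Dppa5a 258 and 2115. The summed FPKM of the list was 484 and 3006, with a median log2 ratio of 2.16. Of 14 genes of mesoderm derivatives 12 reached the FPKM minimum, and 9 were past the cut-off and lower (8.39% over all genes) and 1, Pecam1, was higher. Their median log2 ratio was -1.45, while their summed FPKM, most of it from Col1a1, was 1469 and 1492. All 6 visceral endoderm genes were lower, with a summed FPKM of 205 and 7.14. Defining genes of each group, such as Tnnt2 (14.7 and 4.17), Col1a1 (880 and 1199), Afp (45.9 and 0.422) and Ttr (66.7 and 2.28), were thus present in the Diff–CONT library together with pluripotency genes. Their part in the values of the 10 members, higher or lower, and of Epop, Skida1, Cbx7, Cbx2, Phc1 and Phc2 was not tested. In bulk RNA more cells of a type and more RNA per cell cannot be told apart.

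Genes of dividing cells moved less. Over 20 proliferation genes the median log2 ratio was -0.14, with 14 lower and 6 higher and with Top2a at 108 and 90.7, Pcna at 108 and 94.2 and Mki67 at 50.1 and 43.5. Gins2 (29.2 and 14.2) was the 1 gene past the cut-off. Of the genes that were higher, Ung had a log2 ratio of 0.62, Mcm3 of 0.44 and E2f1 of 0.39.

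**Figure D4:**
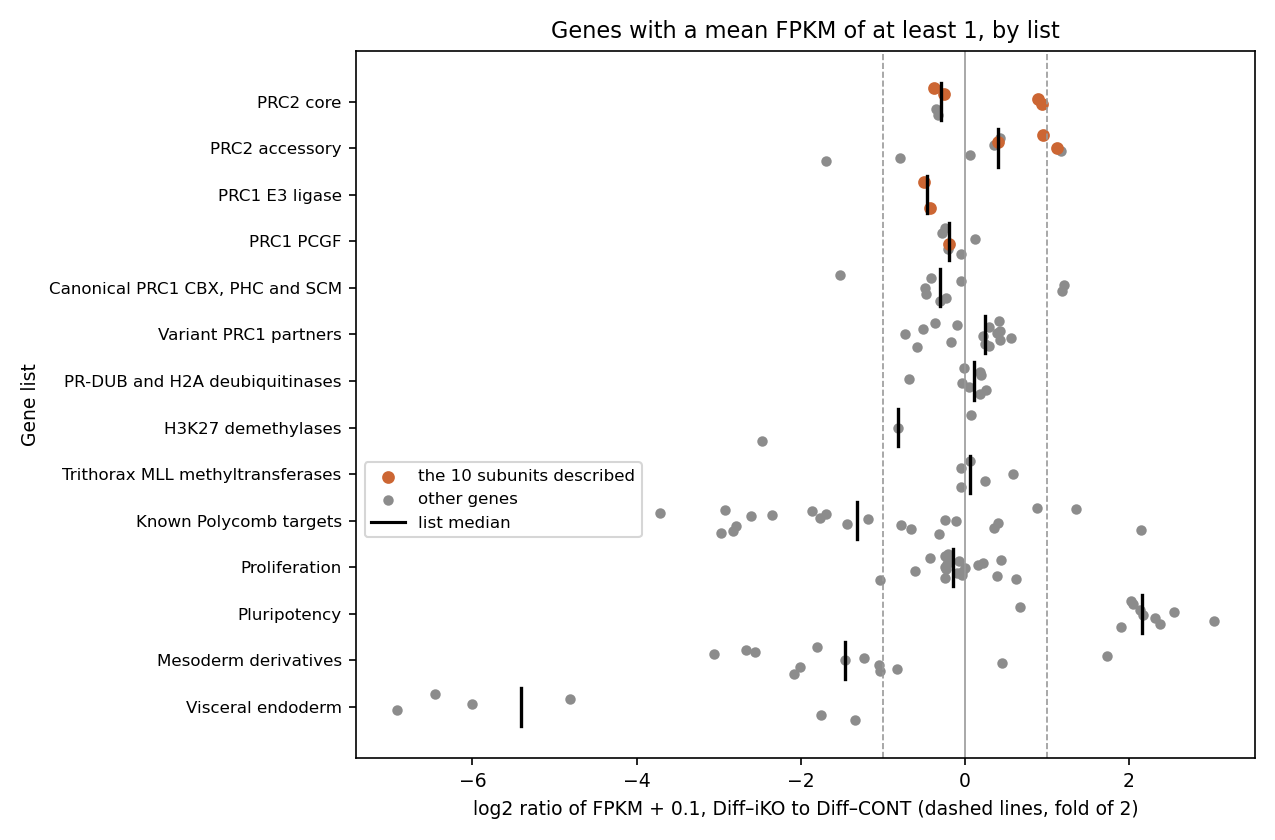
Log2 ratio of FPKM + 0.1 for genes averaging at least 1 FPKM, by list, with the 10 subunits in orange, other genes in grey and list medians as black bars. All 10 subunits lie nearer to 0 than the pluripotency median of 2.16 and the visceral endoderm median of -5.41.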

How the data were processed

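Poly(A) RNA of 1 Diff–CONT and 1 Diff–iKO culture was sequenced as paired-end reads from 1 µg of total RNA per library. The authors deposited FPKM values per gene, and the submitters' processing notes name STAR 2.7.9a, mm10 and Cuffnorm of Cufflinks 2.2.1. The annotation, strand setting and read numbers are not given in the sources used here. Columns were assigned to libraries by name, and 0 other columns of values were present.

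Log2 ratios were taken from FPKM without a pseudocount. Gene lists were summarised with FPKM + 0.1 over genes averaging at least 1 FPKM. Members and lists were chosen with earlier results of these data known. Named genes were the members, the genes of the paralog pairs, and of each list the genes past the cut-off and the 2 with the highest mean FPKM, not all printed. Further genes were named after their values were seen, and some list genes are not reported here.

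Low FPKM values of 10462 single-transcript genes (RefSeq, 1000 nucleotides or longer) lie at whole multiples of a step set by transcript length. The step was fitted with the length shortened by 150 and 175 nucleotides, and 88.3% and 87.9% of low values lay within 0.2 of a whole multiple. The fitted scale was 28900000 fragments for Diff–CONT and 21660000 for Diff–iKO. For genes with several RefSeq transcripts the shortest was used, so their fragments are approximate. Intervals are exact Clopper-Pearson intervals, and those of paralog ratios add the half-widths in quadrature. The steps were tested on simulated data. Positions are from GENCODE vM21 (GRCm38), and 2 list genes were matched by synonym. Scripts ran under Python 3.11.15 with matplotlib 3.10.9, scipy 1.17.1, pandas 2.3.3 and numpy 2.4.6.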

Additional observations from a re-analysis of the deposited data

How the results depend on the processing

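With 1 library per condition no replicate could be left out, and no paired analysis was possible because each condition has 1 sample. Over 60 recalculations of the members' log2 ratios (pseudocounts of 0.1 and 1, 3 scalings and rows of one symbol summed, which changed nothing as 0 symbols had more than 1 row), 0 reversed and 6 moved outside their counting interval. Suz12 ranged from 0.79 to 0.89, Eed from 0.85 to 0.95, Jarid2 from 0.86 to 0.95, Phf19 from 0.92 to 1.16 and Ring1 from -0.59 to -0.46. The count of members past the cut-off and higher was 1, became 0 with a pseudocount of 1 and with a fold of at least 4, and 4 with a fold of at least 1.5. Over all genes, 833 were higher and 1038 lower. These counts became 807 and 1002 with a pseudocount of 0.1, 646 and 712 with a pseudocount of 1, 2794 and 2761 without an FPKM minimum, 488 and 569 with FPKM of at least 2 in both libraries, 1846 and 2177 with a fold of at least 1.5 and 278 and 237 with a fold of at least 4. With FPKM of at least 5 they were 566 and 671.

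Scaling to the same sum shifted all log2 ratios by -0.09 and gave 702 genes higher and 1226 lower. It moved the median of the PRC2 core list to -0.39, of the demethylases to -0.91 and of the proliferation list to -0.24, and reversed that of the Trithorax list from 0.06 to -0.031. Keeping only genes averaging 5 FPKM or more moved the demethylases to -0.37 and the known targets to -0.92. A pseudocount of 1 moved the mesoderm median to -1.24, the visceral endoderm median to -4.50 and the change of Cbx2 to Cbx7 to -2.57. Low values, such as that of Phf19, are the least precise, and the depth limits them by counting error only.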

Other observations

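Genes next to the members on the chromosome gave a further set of values. On each side of each member, the nearest protein-coding gene that reached the FPKM minimum and did not overlap the member was taken, which leaves out Tmed5 and Trmt1l, and the 20 neighbours had a median log2 ratio of -0.07, with 1 past the cut-off and higher and 2 lower, where 6.73% and 8.39% of all genes were. The neighbours of Suz12, Utp6 and Crlf3, had log2 ratios of 0.24 and 0.54, and those of Jarid2, Mcur1 and Dtnbp1, of 0.20 and -0.06, all under the values of the members beside them. Dtnbp1 ends 432 nucleotides from Jarid2 and had an FPKM of 17.3 in Diff–CONT ESCs against 16.6 in the Diff–iKO-labelled library. Prss23, which lies 427467 nucleotides from Eed, had an FPKM of 48.2 and 108 (log2 ratio 1.17). On either side of Ring1, in the major histocompatibility region, H2-K1 (79.3 and 41.4) and H2-Ke6 (23.0 and 7.89) had log2 ratios of -0.94 and -1.54, further down than Ring1. Both neighbours of Ezh1, Ramp2 (-1.72) and Plekhh3 (-0.95), also had lower log2 ratios than the member, and those of Rnf2, Swt1 (0.29) and Fam129a (0.88), lay on the other side of 0 from it. Commd3, upstream of Bmi1, was 48.8 and 47.7.

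Scml2, an X-linked PRC1 gene under the FPKM minimum, had an FPKM of 1.07 and 0.287 (log2 ratio -1.90, interval -2.67 to -1.20).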
